A study of Mus musculus with 21 samples.

Results

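The expression and factor occupancy of 10 genes encoding progenitor transcription factors were examined in *Ebf1*-deficient lymphoid progenitors (LPs): *Hoxa9*, *Myb*, *Ikzf1*, *Ikzf2*, *Ikzf3*, *Mef2c*, *Gata3*, *Hhex*, *Gfi1* and *Meis1*. The genes were taken by symbol from the expression table, so they are 10 of its 55421 genes, and 8 of them had a mean level above 1 and entered the test across 11554 genes. The expression data came from QuantSeq 3′ mRNA sequencing, in which reads start near the 3′ end of each transcript, with 3 libraries for each of 5 conditions. All 15 libraries came from C57BL6/J LPs that lack *Ebf1*, grown on OP9 stromal cells with SCF, IL-7 and Flt3L, carrying a Cas9-GFP retrovirus, and sorted for GFP and hNGFR 5 days after sgRNAs were introduced. The sgControl libraries carried sgRNAs against luciferase, and the others carried sgLmo2, sgZbtb1, sgCbfa2t2 or sgCbfa2t3, each a pool of 2 sgRNA vectors per gene according to the methods. Occupancy came from ChIP-seq for Zbtb1 and for Cbfa2t3 in the LP line, with 2 replicates and 1 list of reproducible peaks per factor. The study describes the replicates as independent, but the sources used here do not say how far back they were kept apart, so the p-values below measure the spread between these cultures.

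Transcription factors of this kind keep multipotent and lymphoid progenitors in an uncommitted state and prepare them for lineage choice. Hoxa9 and Meis1 are homeodomain partners of stem and early progenitor cells, Myb drives their proliferation and is needed for lymphoid development, and the Ikaros zinc finger proteins (Ikzf1, Ikzf2 and Ikzf3) recruit chromatin remodelling complexes to lymphoid genes. Mef2c and Hhex favour lymphoid fate in early progenitors, Gfi1 is a repressor that restrains alternative fates, and Gata3 is the GATA factor that T cells need from their earliest stage. Zbtb1 is a BTB zinc finger protein needed for lymphocyte development, and Cbfa2t2 and Cbfa2t3 are ETO family corepressors that join the Lmo2 complex.

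The libraries held 1705417 to 2095448 reads, so that 3 reads, taken here as the detection floor, corresponded to 1.43 to 1.76 TPM. TPM is the authors' term, and the values are 3′ read counts scaled to the same library total (CPM), not divided by gene length. None of the 4 targeted mRNAs was called lower in the libraries that carry its sgRNAs, and 2 were called higher. *Zbtb1* was 106 ± 9.91 TPM (SD, n = 3) in the libraries labelled sgZbtb1 against 61.7 ± 5.51 TPM in sgControl, and *Cbfa2t3* was 350 ± 12.9 TPM in those labelled sgCbfa2t3 against 190.2 ± 18.7 TPM (limma, adjusted p = 0.00102 and 1.67e-07, both higher). *Lmo2*, at 16.3 ± 7.99 TPM against 18.4 ± 4.17 TPM, and *Cbfa2t2* did not pass the test in their own libraries (limma, adjusted p = 0.956 and 0.412), which does not exclude a fall of *Lmo2*. Reads at the 3′ end can persist after an indel, so these levels do not test disruption of the gene. Protein levels were not analysed here, and every direction given below refers to libraries by their label. All 10 lymphoid progenitor markers examined had a mean above 10 TPM in every condition, with *Kit* as low as 6.87 TPM in a single library labelled sgZbtb1. Summed stromal markers of OP9 reached at most 8.80 TPM in any library, with 3 of 10 markers at 0 throughout. Summed lists ranged from 65.2 to 99.5 TPM for myeloid, 670.3 to 951 TPM for erythroid, 0.558 to 22.0 TPM for B lineage, 20.2 to 65.1 TPM for T lineage and 0.478 to 11.9 TPM for NK and innate lymphoid markers.

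In sgControl the levels of the genes fell into tiers. *Mef2c* was highest at 941 ± 76.3 TPM (SD, n = 3), followed by *Hoxa9* at 694 ± 23.0 TPM, *Myb* at 488 ± 50.4 TPM and *Ikzf1* at 412 ± 34.1 TPM. All 4 ranked within the top 311 of the 11554 genes tested. The *Ikzf1* range of 375 to 442 TPM overlapped with the *Myb* range of 437 to 538 TPM, whereas *Hoxa9* and *Mef2c* each stood apart from the next gene. *Hhex* at 50.2 ± 4.42 TPM and *Gata3* at 33.9 ± 3.80 TPM formed a middle tier. *Gfi1* at 3.10 ± 0.877 TPM was close to the floor, *Ikzf3* at 0.775 ± 0.334 TPM was below it, and *Meis1* and *Ikzf2* had 0 reads in all 15 libraries. Over the 28179128 reads of the 15 libraries together, a count of 0 allows a level of up to 0.106 TPM for each of these, which covers counting error only. Because the reads are 3′ tags, transcript length does not enter this order, although priming at the 3′ end can differ between genes.

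**Figure D1:**
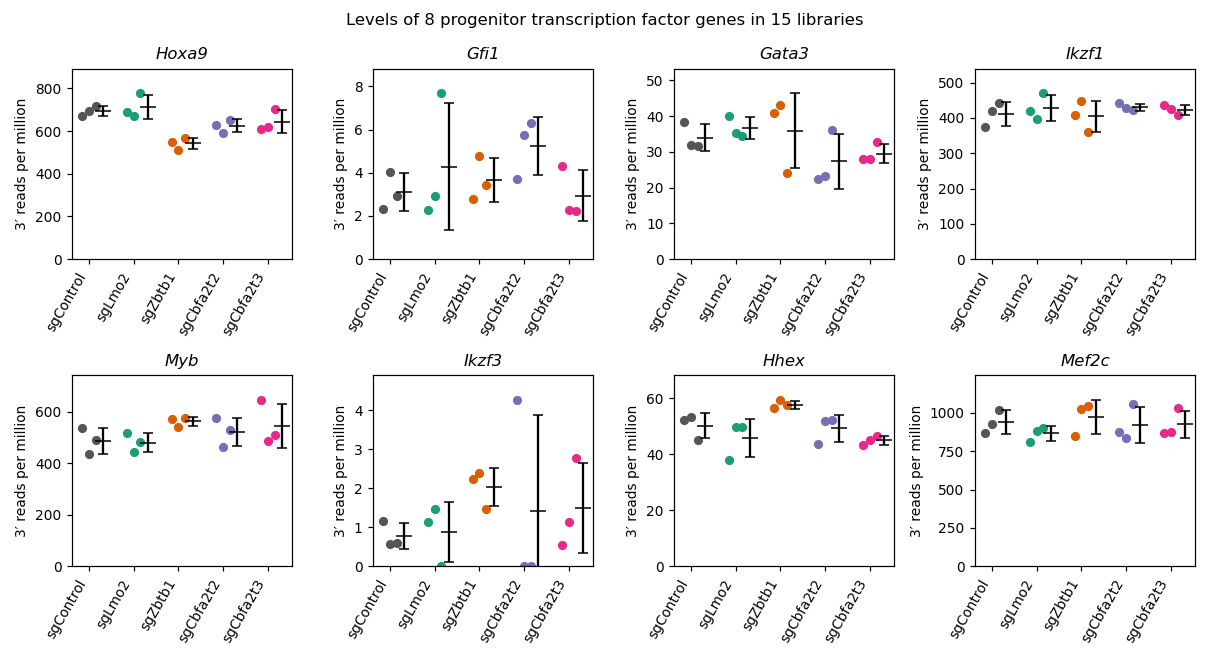
Level of each of the 8 genes that entered the test in every library (points, TPM), with the mean ± SD of 3 libraries per condition as a bar beside them and vertical axes starting at 0. The 3 libraries labelled sgZbtb1 lie between 513 and 566 for *Hoxa9*, below all other libraries, while for *Ikzf1*, *Mef2c* and *Gata3* every condition overlaps with sgControl. The lower SD bar of *Ikzf3* in sgCbfa2t2 is cut at 0.

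The question put to each gene was whether its mRNA level changed when a member of the Lmo2 complex was targeted. Against sgControl, 1 of the 8 genes tested passed an adjusted p of 0.05 in sgZbtb1-labelled libraries, where 4.79% of all genes tested passed. The gene was *Hoxa9*, which fell. None passed in the libraries labelled sgLmo2, sgCbfa2t2 or sgCbfa2t3 by limma, edgeR or DESeq2, where the limma test called 0.0173%, 0.147% and 0.537% of all genes, and none of the 8 had an unadjusted limma p under 0.05 in these 3 comparisons, where 5.65%, 9.56% and 10.6% of all genes did. At that unadjusted threshold 2 genes were reached in sgZbtb1-labelled libraries, *Hoxa9* and *Myb*, beside 17.6% of all genes. Ranges of the 3 libraries did not overlap with sgControl for 4 of the 8 genes in sgZbtb1-labelled libraries (background 22.9%), namely *Hoxa9* on the lower side and *Myb*, *Hhex* and *Ikzf3* on the higher side. The same held for 1 gene in those labelled sgCbfa2t2 (*Hoxa9*; background 13.7%) and for 0 genes in those labelled sgLmo2 and sgCbfa2t3 (background 10.6% and 15.8%). In the moderated F test over the 5 conditions, which called 4.54% of all genes, *Hoxa9* was the single gene called of the 8 (limma, adjusted p = 0.00307), and the other 7 had adjusted p-values of 0.342 or above. Without sgZbtb1 replicate 2, 0 of the 8 were called in this test. The comparisons share the sgControl libraries.

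**Figure D2:**
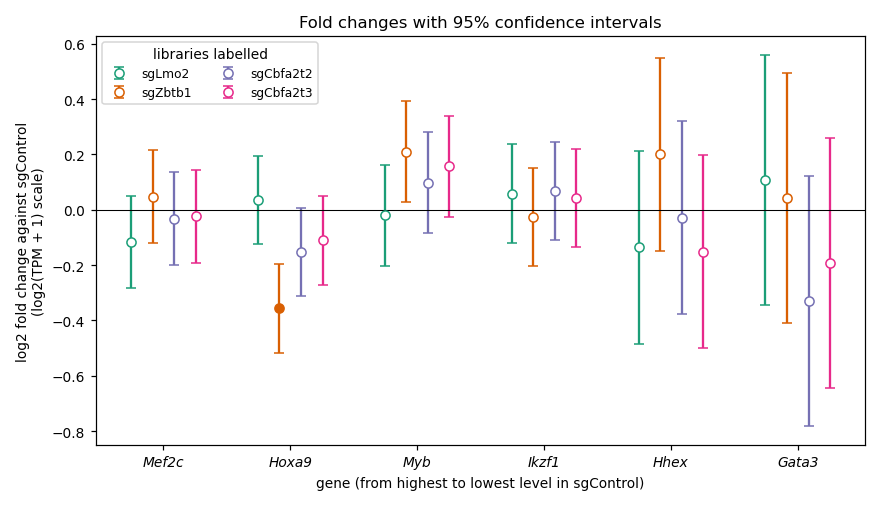
Log2 fold change against sgControl on the log2(TPM + 1) scale for the 6 genes above 10 TPM, one point per set of libraries, with 95% confidence intervals from limma. The filled point has an adjusted p under 0.05, and it is *Hoxa9* in the libraries labelled sgZbtb1 at -0.36; open points do not pass.

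*Hoxa9* (ENSMUSG00000038227, chr6:52223100-52231089, mm10, minus strand), the posterior Hoxa gene of hematopoietic progenitors, was 670.2, 696 and 716 TPM in sgControl. It was 549, 513 and 566 TPM in sgZbtb1-labelled libraries. All 3 of these lay below all 12 other libraries. The mean fell from 694 ± 23.0 to 542 ± 27.1 TPM (SD, n = 3), a difference of -21.9% and a log2 fold change of -0.36 ± 0.08 (SE; 95% interval -0.52 to -0.20; limma, adjusted p = 0.00251). An exact permutation test of the 3 against 3 libraries gave p = 0.1, two-sided, which is the smallest this design can give. In bulk RNA of this kind, fewer cells with *Hoxa9* mRNA and less *Hoxa9* mRNA per cell cannot be told apart. The lymphoid progenitor markers also moved in these libraries: their summed level was 1397 to 1520 TPM against 1593 to 1750 TPM in sgControl, with 3 markers lower and 1 higher among 10 (background 2.94% and 1.85%). *Ly6d*, a surface marker of B-lineage priming, fell from 158 ± 26.1 to 29.4 ± 6.75 TPM (log2 fold change -2.40, limma, adjusted p = 3.19e-20). *Ptprc* (log2 fold change -0.28) and *Kit* fell as well, and *Cd93* rose from 229.5 ± 16.9 to 329 ± 22.1 TPM (log2 fold change 0.52, limma, adjusted p = 0.000159). Summed NK and innate lymphoid markers were 0.478 to 2.79 TPM there against 7.52 to 10.6 TPM, with 1 gene tested, *Nkg7*, which fell to a mean below the floor (limma, adjusted p = 0.00107). Of the 2 B-lineage markers tested, *Pax5* was 0.810 ± 0.747 TPM there, a mean under the floor, against 6.80 ± 1.51 TPM (limma, adjusted p = 0.00420), and *Vpreb1* was 2.30 ± 2.30 TPM against 0.969 ± 0.670 TPM (limma, adjusted p = 0.694). The part of these lists in the *Hoxa9* difference was not tested.

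Among the other conditions *Hoxa9* was 712 ± 55.9 TPM in sgLmo2-labelled libraries, 644 ± 52.8 TPM in those labelled sgCbfa2t3 and 625 ± 30.1 TPM in those labelled sgCbfa2t2. The sgLmo2 values of 688, 673 and 776 TPM overlapped with sgControl, and so did the sgCbfa2t3 values of 608, 619.5 and 705 TPM. The sgCbfa2t2 values of 630.1, 592 and 652 TPM all lay below sgControl, but the difference did not pass (limma, adjusted p = 0.558). The level of the libraries labelled sgZbtb1 was lower than that of the libraries labelled sgLmo2 by a log2 fold change of -0.39 ± 0.08 (SE; limma, adjusted p = 0.000601), a contrast in which 5.06% of all genes were called. Against the libraries labelled sgCbfa2t2 and sgCbfa2t3 the difference did not pass (limma, adjusted p = 0.213 and 0.143; background 2.27% and 1.13%). By mean, the 5 conditions ordered as sgLmo2, sgControl, sgCbfa2t3, sgCbfa2t2 and sgZbtb1, with neighbours in this order not separated by the test (limma, adjusted p of at least 0.213). *Hoxa9* was measured precisely, since its coefficient of variation within conditions was 6.24%, against the 2.88% that read counting alone gives.

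*Hoxa9* supplied 50.2% of the reads of the 11 genes of the Hoxa cluster in the table. *Hoxa5*, the next gene by level, fell in sgZbtb1-labelled libraries from 305 ± 57.0 to 189 ± 6.48 TPM (log2 fold change -0.67, limma, adjusted p = 1.91e-05). It was 236 ± 28.4 TPM in those labelled sgCbfa2t2 and 227 ± 19.2 TPM in those labelled sgCbfa2t3. Both sets lay below all sgControl libraries without passing (limma, adjusted p = 0.212 and 0.0716), and sgLmo2-labelled libraries overlapped with sgControl at 342 ± 60.7 TPM. *Hoxa7* was 144 ± 25.5 TPM in sgZbtb1-labelled libraries against 179 ± 19.4 TPM in sgControl (limma, adjusted p = 0.106). *Hoxa10*, which lies on the other side of *Hoxa9* from *Hoxa7*, was 178 ± 2.38 TPM there against 154 ± 13.2 TPM (limma, adjusted p = 0.300). Its mean was also above sgControl in the libraries labelled sgLmo2 (172 TPM), sgCbfa2t2 (179 TPM) and sgCbfa2t3 (181 TPM). None of these passed (limma, adjusted p = 0.908, 0.527 and 0.441). In sgZbtb1-labelled libraries *Hoxa5* and *Hoxa9* were thus called lower, and *Hoxa7* and *Hoxa10* were not called. Whether the genes of the cluster differed from each other in their change was not tested. *Hoxa3* fell in sgCbfa2t3-labelled libraries, from 30.8 ± 2.41 to 13.9 ± 1.39 TPM (log2 fold change -1.10, limma, adjusted p = 0.0240), and did not pass in those labelled sgZbtb1 (limma, adjusted p = 0.492). In the same sgCbfa2t3-labelled libraries *Ly6d* fell to 57.9 ± 8.52 TPM (log2 fold change -1.43, limma, adjusted p = 6.82e-10) and the erythroid gene *Hbb-bt* rose from 129.9 ± 17.3 to 217 ± 52.0 TPM (log2 fold change 0.72, limma, adjusted p = 0.00303). Their part in the *Hoxa3* difference was not tested. In the libraries labelled sgCbfa2t2, 1 of the 10 lymphoid progenitor markers was also called lower, beside 0.147% of all genes called in either direction.

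**Figure D3:**
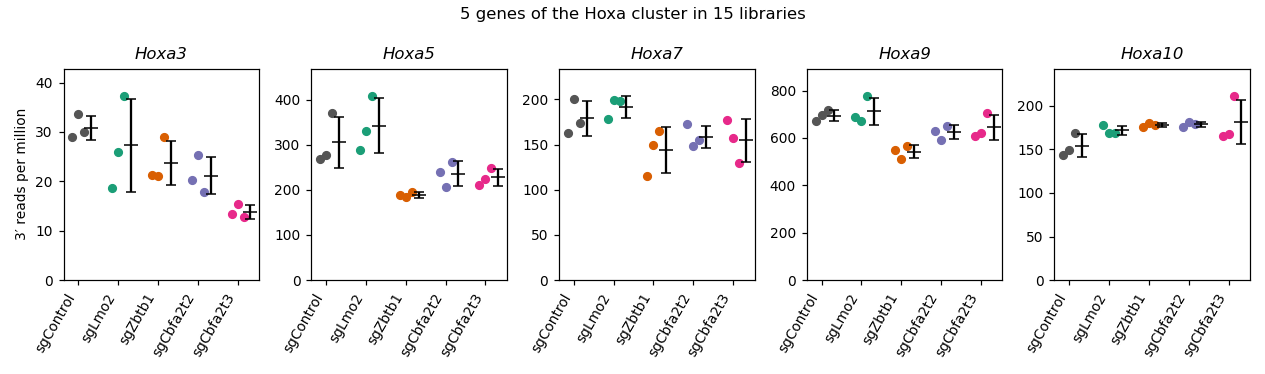
Levels of the 5 Hoxa genes with a mean above 10 in every library (points, TPM), with mean ± SD of 3 libraries and axes starting at 0. *Hoxa5* and *Hoxa9* in the libraries labelled sgZbtb1 (means of 189 and 542) lie below all sgControl libraries, and *Hoxa10* (mean of 178) lies above all of them without passing the test. In those labelled sgCbfa2t2 the same holds for *Hoxa5*, *Hoxa9* and *Hoxa10*, with none passing. *Hoxa5* in those labelled sgCbfa2t3 also lies below all sgControl libraries without passing.

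No peak of either list had *Hoxa9* as its nearest gene. The nearest Zbtb1 peak, at chr6:52234283-52234653 in an exon of *Hoxa10*, had a normalized peak score of 162.3, higher than 96.0% of the Zbtb1 list, and lay 6662 bp upstream of the 300 bp RefSeq promoter window of *Hoxa9* (chr6:52227321-52227620). The nearest Cbfa2t3 peak, at chr6:52230555-52230933 and assigned to *Mir196b*, had a score of 22.2, higher than 9.92% of the Cbfa2t3 list, and lay 2934 bp from the same window. It is inside the outer bounds of the *Hoxa9* gene in GENCODE M21, which include transcripts that start further upstream. Measured from the outermost GENCODE start of *Hoxa9*, the Cbfa2t3 peak centre lay at 345 bp, inside the gene, and the Zbtb1 peak centre at -3379 bp, so the absence of an assigned peak rests on the nearest-gene rule. *Meis1* (chr11:18879817-19018985), the usual partner of Hoxa9, had no reads and no peak of either list within 100 kb of its start site. Of the related TALE homeodomain genes, *Pbx2* at 108 TPM and *Pknox1* at 74.0 TPM (means of 15 libraries) supplied 52.7% and 36.2% of the reads of the 8 Meis, Pbx and Pknox genes counted.

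*Myb* (ENSMUSG00000019982, chr10:21124935-21160984, minus strand) had the next lowest p-value after *Hoxa9* in the comparisons with sgControl, in the opposite direction. Its levels were 538, 437 and 488 TPM in sgControl and 571, 541 and 575 TPM in sgZbtb1-labelled libraries. The higher levels did not overlap with sgControl, and the log2 fold change was 0.21 ± 0.09 (SE; limma, unadjusted p = 0.0255, adjusted p = 0.195), so the difference did not pass. Leaving out 1 library gave 0.13 to 0.28, the lowest without sgControl replicate 2, and none of these passed. The remaining conditions, at 480.4 ± 37.2 TPM for sgLmo2, 522 ± 55.1 TPM for sgCbfa2t2 and 644, 485 and 509 TPM for the sgCbfa2t3 libraries, overlapped with sgControl. *Myb* held 95.7% of the reads of its family. *Mybl1*, a relative, fell in sgZbtb1-labelled libraries from 12.4 ± 3.68 to 3.08 ± 0.750 TPM (log2 fold change -1.69, limma, adjusted p = 0.0156), which lies near the floor.

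A Zbtb1 peak lay at the *Myb* promoter (chr10:21160933-21161303, score 19.3, -134 bp from the start site). Its score was higher than 23.0% of the Zbtb1 list. Of the 32851 RefSeq promoter windows of the mouse, taken whether or not the gene is expressed, 6.70% overlapped a Zbtb1 peak. The share among promoters of expressed genes alone was not computed. The central 200 bp of this peak, chr10:21161018-21161217 on the plus strand (GRCm38, which is mm10), are shown because they hold none of the 4 motifs searched.
Myb promoter, Zbtb1 peak: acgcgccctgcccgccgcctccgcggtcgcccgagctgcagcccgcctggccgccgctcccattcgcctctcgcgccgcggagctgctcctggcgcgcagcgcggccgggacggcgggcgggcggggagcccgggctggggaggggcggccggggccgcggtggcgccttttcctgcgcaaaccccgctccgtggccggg
The window is rich in C and G, and no letters are in capitals because neither TGTGGT nor TGGTGGT occurs on either strand. No Cbfa2t3 peak had *Myb* as its nearest gene. However, 5 Cbfa2t3 peaks lay within 100 kb of its start site on both sides of the gene, with scores of 24.6 to 64.8.

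*Ikzf1* (ENSMUSG00000018654, chr11:11685003-11772926, plus strand), which encodes Ikaros, showed no condition apart from the others. Its levels were 375, 419 and 442 TPM in sgControl and 409, 447 and 359 TPM in sgZbtb1-labelled libraries. They were 419, 398 and 469 TPM in sgLmo2-labelled libraries, 442, 429 and 421 TPM in those labelled sgCbfa2t2, and 435, 425 and 408 TPM in those labelled sgCbfa2t3. All conditions overlapped, and the 95% intervals of the 4 differences from sgControl together ran from -0.20 to 0.25 on the log2 scale. *Ikzf1* held 74.2% of the reads of the 5 Ikaros family genes. *Ikzf5* (122 TPM, mean of 15 libraries) held 21.5% and *Ikzf4* (22.8 TPM) 4.02%. *Ikzf3*, which encodes Aiolos (chr11:98464902-98546031), had 37 reads over all libraries, with 3 to 5 reads in each library labelled sgZbtb1 and 1 or 2 in each sgControl library, a difference that was not detectable at this depth (limma, adjusted p = 0.577). *Ikzf2*, which encodes Helios (chr1:69531214-69687245), had none, and 9 reads were assigned to *Gm29112*, a transcript within its introns.

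*Ikzf1* had 2 peaks in each list. The Zbtb1 peak at its promoter (chr11:11685371-11685741) had a score of 108.9, higher than 92.7% of the Zbtb1 list and the highest of all peaks at these genes. Upstream, a Zbtb1 peak (chr11:11657205-11657575, score 24.3) and a Cbfa2t3 peak (chr11:11657596-11657974, score 45.1) lay side by side about 28 kb from the start site. These 2 peaks did not overlap, with a gap of 20 bp between them and 395 bp between their centres. The central 200 bp of the 3 peaks (plus strand, chr11:11685456-11685655, chr11:11657290-11657489 and chr11:11657685-11657884) are given to compare a promoter peak that lacks the Runx core with the upstream pair that holds it. Capitals mark TGTGGT on either strand, where ACCACA is its reverse complement.
Ikzf1 promoter, Zbtb1 peak: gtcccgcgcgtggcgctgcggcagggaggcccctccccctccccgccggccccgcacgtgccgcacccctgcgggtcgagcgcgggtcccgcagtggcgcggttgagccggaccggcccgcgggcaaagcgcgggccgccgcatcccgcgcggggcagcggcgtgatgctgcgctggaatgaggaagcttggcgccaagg
Ikzf1 upstream, Zbtb1 peak: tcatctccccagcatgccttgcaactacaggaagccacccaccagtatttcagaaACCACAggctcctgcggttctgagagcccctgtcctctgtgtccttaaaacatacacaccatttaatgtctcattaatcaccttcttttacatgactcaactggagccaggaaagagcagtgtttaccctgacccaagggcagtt
Ikzf1 upstream, Cbfa2t3 peak: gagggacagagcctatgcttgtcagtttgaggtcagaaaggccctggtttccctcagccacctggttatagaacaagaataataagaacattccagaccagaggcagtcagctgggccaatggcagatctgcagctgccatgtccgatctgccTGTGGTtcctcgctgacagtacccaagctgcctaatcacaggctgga
Each window of the upstream pair holds 1 TGTGGT, on opposite strands, and the Cbfa2t3 window holds 3 E-boxes (CANNTG) against 1 in the Zbtb1 window. A further Cbfa2t3 peak lay at chr11:11667308-11667686, between this pair and the gene (score 32.7). Inside the gene, 1 Zbtb1 peak and 3 Cbfa2t3 peaks were assigned to *Fignl1*, whose start site is nearer, so the list's assignment does not count them for *Ikzf1*. *Ikzf2* had no peak of either list within 100 kb of its start site, and *Ikzf3* had 1 of each list, assigned to *Grb7*.

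*Mef2c* (ENSMUSG00000005583, chr13:83504034-83667080, plus strand), a MADS box factor of lymphoid and myeloid progenitors, was 869.9, 930.1 and 1021 TPM in sgControl. It was 849, 1026 and 1047 TPM in sgZbtb1-labelled libraries and 812, 885 and 904 TPM in those labelled sgLmo2. The libraries labelled sgCbfa2t2 gave 877, 834 and 1058 TPM, and those labelled sgCbfa2t3 gave 872, 876 and 1029.8 TPM. All conditions overlapped with sgControl, and the 95% intervals of the differences ran from -0.28 to 0.21 on the log2 scale. The variation within conditions was 9.93%, against 2.40% from read counting, so that reads did not limit this gene. *Mef2c* held 81.2% of the reads of its family. In the sgZbtb1-labelled libraries its paralog *Mef2a* fell from 134 ± 28.3 to 79.2 ± 13.7 TPM (log2 fold change -0.74, limma, adjusted p = 0.000420), while *Mef2d* was 91.4 ± 3.81 TPM against 102 ± 17.2 TPM (limma, adjusted p = 0.634).

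With 2 Zbtb1 and 4 Cbfa2t3 peaks, *Mef2c* had the most peaks of the 10 genes by nearest-gene assignment. Within 100 kb of the start site, whatever the nearest gene, *Ikzf1* had 3 Zbtb1 and 5 Cbfa2t3 peaks, *Myb* 1 and 5, and *Mef2c* 2 and 2. The assigned peaks of *Mef2c* comprised Zbtb1 peaks in introns 2 and 3 (scores 49.0 and 18.5) and Cbfa2t3 peaks in intron 1 (score 66.5) and intron 3 (scores 22.6 and 25.5), and far upstream at chr13:83111507-83111885 (score 52.3). The intron 3 peaks of the factors, at chr13:83597405-83597775 and chr13:83597394-83597772, shared 368 bp and scored higher than 19.4% of the Zbtb1 list and 12.6% of the Cbfa2t3 list. They were the only overlapping pair among the peaks assigned to the 10 genes, and the list places them in a MER3 DNA transposon. The central 200 bp of the Zbtb1 peaks in introns 2 and 3 (plus strand, chr13:83590925-83591124 and chr13:83597490-83597689) are printed to set a peak on a run of TGG repeats beside the site found for both factors. Capitals mark TGTGGT and TGGTGGT on either strand.
Mef2c intron 2, Zbtb1 peak: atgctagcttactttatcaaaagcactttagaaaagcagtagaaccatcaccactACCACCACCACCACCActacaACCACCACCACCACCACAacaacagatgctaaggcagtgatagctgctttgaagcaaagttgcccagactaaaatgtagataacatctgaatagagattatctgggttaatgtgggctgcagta
Mef2c intron 3, peak of both factors (window of the Zbtb1 peak): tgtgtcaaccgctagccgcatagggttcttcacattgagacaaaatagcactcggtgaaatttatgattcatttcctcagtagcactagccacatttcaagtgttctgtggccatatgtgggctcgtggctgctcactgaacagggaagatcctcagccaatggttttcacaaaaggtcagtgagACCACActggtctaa
The intron 2 window holds 8 overlapping TGGTGGT matches, read as ACCACCA on this strand, and its single TGTGGT shares bases with one of them. It also holds 3 GATAA matches. The intron 3 window holds 1 TGTGGT, no TGGTGGT and 2 E-boxes.

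*Gata3* (ENSMUSG00000015619, chr2:9857078-9890034, minus strand) was 38.3, 31.8 and 31.7 TPM in sgControl. Its levels were 40.8, 43.0 and 24.1 TPM in sgZbtb1-labelled libraries, 40.1, 35.2 and 34.5 TPM in those labelled sgLmo2, 22.4, 23.4 and 36.2 TPM in those labelled sgCbfa2t2 and 27.9, 28.0 and 32.7 TPM in those labelled sgCbfa2t3. The conditions overlapped with sgControl throughout, and the libraries labelled sgZbtb1 and sgCbfa2t2 were each split between high and low values. With 42 to 90 reads per library, the variation within conditions was 19.3%, against 12.8% from read counting alone. The 95% intervals of the differences from sgControl accordingly ran from -0.78 to 0.56 on the log2 scale. *Gata3* held 99.4% of the reads of 5 GATA family genes, with 0 reads for *Gata2* and *Gata4*.

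All 5 peaks assigned to *Gata3* lay beyond the 3′ end of the gene, 75867 to 284557 bp from its start site. The Cbfa2t3 peaks scored 62.7, 34.9 and 33.4, and the strongest, at chr2:9801522-9801900, exceeded 81.4% of the Cbfa2t3 list. The Zbtb1 peaks scored 19.7 and 16.2, and the weaker (chr2:9784630-9785000) is annotated as a simple repeat of TGG. Its central 200 bp (plus strand, chr2:9784715-9784914) show the repeat, with TGGTGGT in capitals.
Gata3 distal, Zbtb1 peak: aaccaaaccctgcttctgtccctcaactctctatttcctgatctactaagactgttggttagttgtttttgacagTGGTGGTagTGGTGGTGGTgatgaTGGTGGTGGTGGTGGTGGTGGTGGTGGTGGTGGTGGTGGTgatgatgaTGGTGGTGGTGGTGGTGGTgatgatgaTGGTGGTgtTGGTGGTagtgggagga
The window holds 22 overlapping matches of TGGTGGT and no TGTGGT. Simple repeats make up 7.15% of the Zbtb1 list and 0.444% of the Cbfa2t3 list, and the mapping settings the authors state kept some reads with several alignments. No peak lay at the *Gata3* promoter. The Zbtb1 and Cbfa2t3 peaks of *Gata3* were at least 13475 bp apart.

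*Hhex* (ENSMUSG00000024986, chr19:37434810-37440731, plus strand), a homeobox gene needed for early lymphoid specification, was 52.3, 53.2 and 45.2 TPM in sgControl. In the sgZbtb1-labelled libraries it was 56.4, 59.3 and 57.4 TPM, above all other libraries, but the difference did not pass (limma, unadjusted p = 0.255, adjusted p = 0.601). The other conditions gave 45.9 ± 6.91 TPM for sgLmo2, 49.3 ± 4.88 TPM for sgCbfa2t2 and 45.0 ± 1.55 TPM for sgCbfa2t3, each overlapping with sgControl. The variation within conditions, 8.82%, was no larger than the 10.3% that read counting gives at this depth. No peak was assigned to *Hhex*, and the nearest peak within 100 kb was a Cbfa2t3 peak 32305 bp downstream of its start site, in an intron of *1700122C19Rik* (score 51.0).

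*Gfi1* (ENSMUSG00000029275, chr5:107716657-107726036, minus strand), a zinc finger repressor, had 4 to 14 reads per library. Levels were 2.32, 4.05 and 2.93 TPM in sgControl and reached 7.67 TPM in 1 library labelled sgLmo2. All conditions overlapped with sgControl. An antisense transcript that overlaps *Gfi1*, *A430072P03Rik*, had 9 reads, against 110 for *Gfi1*. The paralog *Gfi1b*, at 30.2 TPM (mean of 15 libraries), held 88.6% of the reads of the pair. At *Gfi1* lay 2 Cbfa2t3 peaks, at the promoter (chr5:107725743-107726121, score 24.9, higher than 24.1% of the list) and in intron 6 (chr5:107717994-107718372, score 36.3), and no Zbtb1 peak. The intron 6 window held 4 E-boxes and the promoter window 1, and neither held TGTGGT. Of all RefSeq promoter windows, 2.59% overlapped a Cbfa2t3 peak.

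Across the 10 genes, 7 of 5898 Zbtb1 peaks and 11 of 6077 Cbfa2t3 peaks had a member as the nearest gene. *Gata3*, *Ikzf1* and *Mef2c* had peaks of both lists, *Myb* of Zbtb1 alone and *Gfi1* of Cbfa2t3 alone. The other 5 genes had none. Of the 8 genes in the expression test, 4 had a Zbtb1 peak, against 26.8% of all genes tested, and 4 had a Cbfa2t3 peak, against 20.5%. Genes with 2 or more peaks numbered 3 for Zbtb1 (background 5.33%) and 4 for Cbfa2t3 (background 7.14%). At 4 or more peaks there were 0 genes for Zbtb1 (background 0.476%) and 1 for Cbfa2t3, *Mef2c* (background 1.27%). *Hoxa9*, the gene that fell, was among those with no assigned peak, and the 3 genes with peaks of both factors did not pass the test in any comparison with sgControl. The median score was 19.7 for the Zbtb1 peaks at these genes against 28.0 for the whole list, and 34.9 against 33.2 for Cbfa2t3. Peaks that overlapped the other list numbered 1 of 7 and 1 of 11, beside 25.2% and 24.4% of the lists. This count follows the nearest-gene assignment. Inside *Ikzf1*, a Zbtb1 peak (chr11:11766097-11766467, score 30.8) and a Cbfa2t3 peak (chr11:11766095-11766473, score 25.9), both assigned to *Fignl1*, also overlapped, as did a pair about 77 kb from the *Gfi1* start site assigned to *A930041C12Rik*. Each list pools 2 replicates, so the peaks carry no replicate error.

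**Figure D4:**
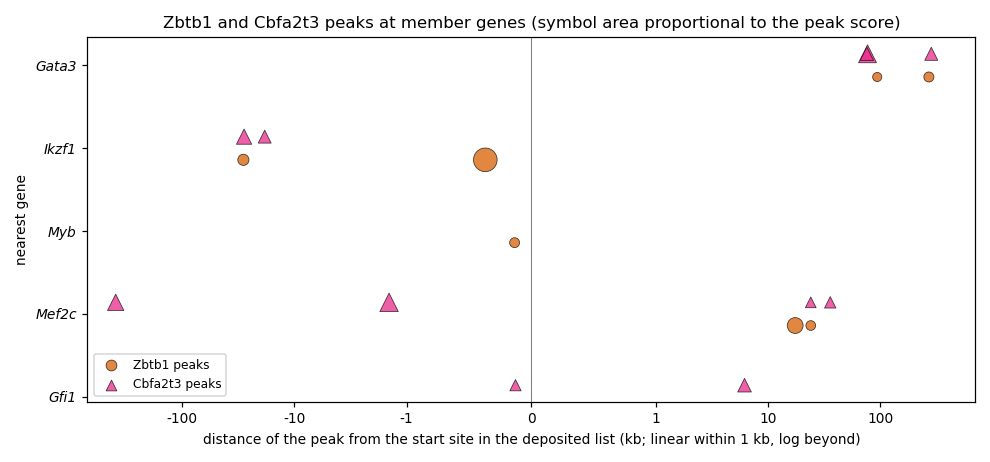
Position of the 7 Zbtb1 peaks (circles) and 11 Cbfa2t3 peaks (triangles) relative to the start site of the nearest gene in the deposited list, in kb on a scale linear within 1 kb and logarithmic beyond, with negative values upstream. Symbol area is proportional to the peak score, which runs from 16.2 to 108.9. The largest circle is the *Ikzf1* promoter peak, and the pair about 28 kb upstream of *Ikzf1* and the shared site in *Mef2c* are the places where peaks of the factors lie closest.

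Motif content was described in the central 200 bp of each peak on both strands. TGTGGT, the Runx core, occurred in 4 of 7 Zbtb1 windows and 5 of 11 Cbfa2t3 windows, against 41.3% and 43.7% of all windows of the lists. In the central 100 bp it occurred in 1 of 11 Cbfa2t3 windows, against 30.5% of that list. The E-box letters CANNTG, bound by basic helix-loop-helix proteins, occurred in 5 of 7 and 10 of 11, against 53.6% and 89.3%. TGGTGGT occurred in 2 of 7 and 0 of 11, against 15.8% and 6.94%, and both of these windows are the repeat runs printed above. GATAA occurred in 1 of 7 and 0 of 11, against 9.76% and 13.1%. TGTGGT and TGGTGGT can share bases, which they did only in *Mef2c* intron 2. In the 300 bp RefSeq promoter windows (GRCm38), found for 8 of the 10 genes, TGTGGT occurred only at *Meis1*, against 16.8% of 32851 promoters, and TGGTGGT occurred at none, against 4.58%.

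Relatives, partners and reported targets of the 10 proteins were examined as 3 lists, with 11 calls in the 4 comparisons with sgControl (8 to 16 under the alternatives). Of 19 tested relatives among 29, 3 fell in sgZbtb1-labelled libraries, beside 2.94% of all genes, and 0 rose. They were *Hoxa5*, *Mef2a* and *Mybl1*, given above. The median log2 fold change of the list was -0.38, against -0.03 for all genes. *Hoxa3* was the only relative called in the other comparisons with sgControl, in sgCbfa2t3-labelled libraries, where 0.407% of all genes fell. Of 24 genes for protein partners, mostly NuRD, HDAC and CoREST components, 2 fell in sgZbtb1-labelled libraries. These were *Hdac5*, a class IIa deacetylase that binds Mef2 proteins, from 51.4 ± 4.56 to 30.5 ± 5.70 TPM (log2 fold change -0.75, limma, adjusted p = 0.00778), and the corepressor gene *Tle1*, which was 4.66 ± 1.20 TPM in sgControl and below the floor in those libraries (limma, adjusted p = 0.0101). *Chd4*, the NuRD remodeller that Ikaros recruits, was 1109 ± 42.1 TPM against 1131 ± 45.0 TPM (limma, adjusted p = 0.894).

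Of the 15 reported targets tested, 4 fell and 1 rose in the libraries labelled sgZbtb1 (background 2.94% and 1.85%). *Runx1*, a master regulator of hematopoiesis, fell from 320.0 ± 16.0 to 179.8 ± 6.00 TPM (log2 fold change -0.83, limma, adjusted p = 3.28e-09). The survival gene *Bcl2* fell from 778 ± 65.5 to 455 ± 27.9 TPM (log2 fold change -0.77, limma, adjusted p = 8.97e-10). *Cd34*, a progenitor surface marker, rose from 258 ± 47.7 to 369 ± 8.29 TPM (log2 fold change 0.53, limma, adjusted p = 0.00107). The other genes that fell, named after their values were seen, were *Id2* (log2 fold change -0.60) and the SCF receptor gene *Kit* (-1.14). The median of the list was -0.05, close to the -0.03 of all genes. *Flt3*, a target credited to Hoxa9 and Ikaros, was 213 ± 24.3 TPM against 231 ± 39.6 TPM (limma, adjusted p = 0.661). None of the 15 was called in the libraries labelled sgLmo2, sgCbfa2t2 or sgCbfa2t3, where 2, 5 and 4 of them had an unadjusted limma p under 0.05, beside 5.65%, 9.56% and 10.6% of all genes.

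Genes with the most similar profile over the 15 libraries were found for each member above 10 TPM among 7959 protein-coding genes, as a description. For *Hoxa9* they were *Lztfl1* (Pearson r = 0.929) and *Bcl2* (0.916), and for *Myb* *Cmss1* (0.859) and *Cd34* (0.823). *Mef2c* was most like *Stk4* (0.893) and *Elf1* (0.846), *Hhex* most like *Rbfa* (0.886) and *Dusp3* (0.854), *Ikzf1* most like *Zfp319* (0.832) and *Grk3* (0.810) and *Gata3* most like *Pop1* (0.774) and *Amn1* (0.768). The libraries share conditions, and these values are the highest of many, so they carry no test.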

How the data were processed

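QuantSeq libraries of 15 samples (5 sgRNA conditions, 3 replicates) and peak lists of Zbtb1 and Cbfa2t3 ChIP-seq (2 replicates and input) were used. For QuantSeq the authors trimmed reads with fastp, mapped them to mm10 with STAR and put libraries on a common total. What was deposited as TPM is therefore CPM, not divided by length. Whole reads were recovered for 100.0% of values (tolerance 0.0011), and 1 row with no gene ID (at most 0.0001% of reads) was left out. For ChIP-seq the authors used Bowtie 1.1.1 and HOMER (mm10, IDR over 2 replicates). The deposited peak score is HOMER's normalized score, at least 15 per the methods. Strand use in counting is not given in the sources used here.

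The 15 libraries were fitted together with limma 3.58.1 (trend) on log2(TPM + 1) for genes with a mean above 1, with two-sided tests and Benjamini-Hochberg adjustment over 11554 genes. Code was tested on simulated data. Samples were grouped by their labels. Alternatives comprised edgeR 4.0.16, DESeq2 1.42.0, other filters, scalings, pseudocounts and call rules, each replicate left out and the replicate number as a block. Libraries with the same number were only slightly more alike than others, and the main fit did not pair them. Whole-list motif and overlap shares stand beside the peaks at members. All 10 members are named; a log2 fold change is given for a member where its unadjusted p against sgControl, or its adjusted p between gene-targeted groups, was under 0.05, for list genes where the adjusted p was under 0.05 (up to 3 per list and comparison by the rule, none against a level under the floor, with *Id2* and *Kit* added after their values were seen), and the 2 most similar genes are given by Pearson r. Members, lists and tests were chosen with earlier results of these data known. Sequences are from the RefSeq GRCm38 assembly, whose chromosomes hold every peak. Gene positions are from GENCODE M21, which matched 55154 of 55421 IDs. The floor and the limit at 0 reads cover counting error only, and the 95% intervals are from limma and rest on the spread between libraries.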

Additional observations from a re-analysis of the deposited data

Results flagged for a closer look

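The effects labelled sgZbtb1 and sgLmo2, each from pooled sgRNAs, on *Hoxa9* differed from each other by a test of the difference itself. *Hoxa9* was 542 ± 27.1 TPM (SD, n = 3) in the libraries labelled sgZbtb1 and 712 ± 55.9 TPM in those labelled sgLmo2, against 694 ± 23.0 TPM in sgControl. The difference between the 2 effects was -0.39 on the log2 scale (SE 0.08, limma, adjusted p = 0.000601), with all 3 libraries labelled sgZbtb1 below all 3 labelled sgLmo2. Groups of 3 libraries are too small for the search for single outlying samples, so none was made.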

How the results depend on the processing

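Of 206 recomputed values, 195 kept their direction and side of the threshold or, for counts, stayed within 1.5 times the reported count, and 0 reversed. Calls of list genes in the 4 comparisons with sgControl numbered 8 to 16 in place of 11. They were 8 with all genes above 0, 8 to 13 with 1 library left out (8 without sgControl replicate 2, sgControl replicate 3 or sgZbtb1 replicate 3) and 16 with the replicate block. Against sgControl, the fall of *Hoxa9* in the libraries labelled sgZbtb1 ran from -0.39 to -0.32 on the log2 scale. Both ends came from leaving out 1 library, and the adjusted p ran from 0.000476 to 0.0324 (limma, edgeR or DESeq2). With the 9 remaining gene-targeted libraries as reference in place of sgControl, the difference was -0.28 (limma, adjusted p = 0.00365). Under the study's call rule on unlogged values, which asks for a larger fold change, *Hoxa9* had a log2 ratio of -0.36 and was not called, so that rule and the same thresholds on the limma fit called 0 of the 8 genes there in place of 1, by their own construction. Without sgZbtb1 replicate 2 the F test over 5 conditions called 0 genes in place of 1 (range over left-out libraries 0 to 1). With the 9 remaining gene-targeted libraries as reference, 1 gene was called in the libraries labelled sgLmo2 in place of 0, *Hoxa9* at 0.24 (limma, adjusted p = 0.0306), a reference that holds the libraries labelled sgZbtb1. With the replicate block the adjusted p of *Hoxa9* was 0.000476 and the number of the 8 genes called did not change in any comparison. After group means were removed, same-numbered libraries of different conditions correlated at 0.0279 on average (-0.00720 to 0.0656). Differently numbered ones correlated at -0.0139 (-0.0608 to 0.0320). Same-numbered libraries were thus slightly more alike, and the main fit did not pair them.

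Zbtb1 peaks at the 10 genes numbered 2 at a score of at least 30 and 2 within 10 kb of the start site, in place of 7. Cbfa2t3 peaks numbered 3 within 10 kb and 20 within 100 kb whatever the nearest gene, in place of 11. In 100 bp windows GATAA occurred in 0 Zbtb1 peaks in place of 1, and TGTGGT in 1 Cbfa2t3 peak in place of 5. Depth limits *Gfi1* and *Ikzf3*, whose levels lie at or under 14 reads per library, and counting error alone gives 12.8% for *Gata3* and 10.3% for *Hhex*.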

Other observations

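*Ebf1*, the B-lineage factor that this LP line lacks, had 3′ reads in every library and was looked at after its values were seen. It was 336 ± 30.5 TPM (SD, n = 3) in sgControl, 287 ± 33.6 TPM in the libraries labelled sgLmo2, 264 ± 21.5 TPM in those labelled sgCbfa2t3, 261 ± 11.2 TPM in those labelled sgCbfa2t2 and 217 ± 6.74 TPM in those labelled sgZbtb1. Which exons were deleted is not given in the sources used here, and reads at the 3′ end outside a deletion do not check it.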
